A study of Mus musculus with 15 samples.

Results

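The level of 10 genes of ribosome production was examined in mouse plantaris muscle, chosen by gene symbol among the 20406 genes of the deposited table. They are Ubtf, Rrn3, Polr1a, Polr1b, Ncl, Fbl, Nop56, Npm1, Bop1 and Noc2l, and all 10 were listed in all 15 libraries and passed the filter on low counts. All mice were adult male HSA-GFP mice, in which the human skeletal actin promoter drives a tetracycline-controlled histone 2B-GFP label of muscle fibre nuclei. RNA came from whole plantaris and not from sorted nuclei, so fewer cells of a type and less RNA per cell cannot be told apart. There were 5 groups of 3 libraries. Trained mice (6M_PoW) were 4 months old at the start, ran on a progressively weighted wheel (PoWeR) over 8 weeks and were sampled at 6 months. A second trained set by title (6M_POW_LD) held replicates 4 to 6, whose identifiers carry the letters LD, and the labels do not say what LD stands for. Untrained mice of the same age (6M_UT) were their controls. Detrained mice (9M_PoW+DT) did the same 8 weeks of PoWeR, then 12 weeks without it, and were sampled at 9 months beside untrained mice of that age (9M_UT).

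The groups follow the titles. The treatment field contradicted the titles in 9 libraries: it exchanged the 9-month groups and called the LD libraries sedentary. Each direction that involves these 9 libraries therefore rests on the titles. The LD libraries and the 9-month libraries also carried identifiers of other series than the first 6-month libraries, so library series cannot be told apart from age or from the LD set. Library totals ran from 18865037 to 27688826 counts. The 8 muscle fibre markers (Acta1, Ckm, Myh4, Mylpf, Tnnt3, Tnni2, Actn3, Atp2a1) summed to 99281 to 147774 CPM (counts scaled to a common library size) in the 15 libraries, and none was at 0. The labels do not state whether each replicate is its own mouse, so a p-value here measures the spread among libraries, which may be technical.

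Ribosomes are built in the nucleolus. RNA polymerase I, whose 2 largest subunits are encoded by Polr1a and Polr1b, copies ribosomal DNA into one long precursor RNA. UBF, encoded by Ubtf, keeps these genes open, and TIF-IA, encoded by Rrn3, makes the polymerase ready to start. The precursor is then modified, cut and packed with ribosomal proteins by nucleolar factors. In muscle, ribosome production is known to rise when fibres grow under load and to set how much protein a fibre can make.

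Upstream regions of 3 genes are printed, to show the members that the results turn on and the one with the most motif matches. Of the 10 genes, 7 had an entry in RefSeq's promoter table (GRCm38.p6), which covers 250 bases before to 50 after a start. Printed are 250 bases before and 20 after the start, for Noc2l (chr4:156235765-156236034, plus strand), Ncl (chr1:86359436-86359705, minus strand) and Rrn3 (chr16:13780449-13780718, plus strand). Capitals mark matches to CACGTG (the E-box, known as a MYC site) or to CCGGAAG and its reverse CTTCCGG (the ETS core).
Noc2l: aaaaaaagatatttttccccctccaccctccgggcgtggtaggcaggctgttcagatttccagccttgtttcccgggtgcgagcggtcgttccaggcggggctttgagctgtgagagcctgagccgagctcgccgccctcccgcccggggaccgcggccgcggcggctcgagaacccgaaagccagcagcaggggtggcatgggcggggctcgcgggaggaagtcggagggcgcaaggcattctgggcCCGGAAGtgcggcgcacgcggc
Ncl: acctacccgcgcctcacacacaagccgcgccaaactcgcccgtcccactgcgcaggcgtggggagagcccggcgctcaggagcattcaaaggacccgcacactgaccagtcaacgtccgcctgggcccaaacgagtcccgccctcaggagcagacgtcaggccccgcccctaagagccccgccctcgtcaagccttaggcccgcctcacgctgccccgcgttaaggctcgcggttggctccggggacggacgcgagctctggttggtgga
Rrn3: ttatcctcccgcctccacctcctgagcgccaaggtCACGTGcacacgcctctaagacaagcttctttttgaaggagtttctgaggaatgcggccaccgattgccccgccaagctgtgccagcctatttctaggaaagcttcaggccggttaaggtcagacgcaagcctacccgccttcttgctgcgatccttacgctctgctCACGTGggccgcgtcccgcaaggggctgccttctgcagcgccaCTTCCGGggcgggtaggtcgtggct
Rrn3 held the E-box at 215 and 48 bases before its start and the ETS core at 5 bases before it, and in Noc2l the ETS core began 2 bases before the start. The E-box stood in 7.15% and the ETS core in 8.86% of the 32851 promoter entries, on either strand. The 7 matched members had 13 entries, of which 1 held the E-box (of Rrn3) and 3 the ETS core (of Noc2l and Rrn3). The NRF1 motif, searched on either strand, stood in 4.60% of all entries and in 0 of the 13. A match is a description of these letters only.

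Across the 15 libraries the members were steady. The highest library stood at 1.27 times the lowest for Rrn3, 1.28 times for Polr1b and 1.36 times for Ncl, and 9 of the 10 genes stayed within 1.56 times. Fbl was the exception at 2.44 times. The lowest of the 5 group means lay in the LD libraries for 6 members and in 6M_PoW for 3. Over all 15181 genes, 25.1% had their lowest group mean in the LD libraries and 18.8% in 6M_PoW. The highest group mean lay in 6M_UT for 4 members, against 17.6% of all genes. Members did not all share a profile. Across the 15 libraries, which differ in group and depth, the correlation (Pearson's r) of each gene with the mean of the other 9 was 0.75 for Ncl, 0.74 for Polr1a and 0.71 for Noc2l. It was -0.0014 for Bop1, 0.0022 for Fbl and -0.073 for Rrn3.

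**Figure D1:**
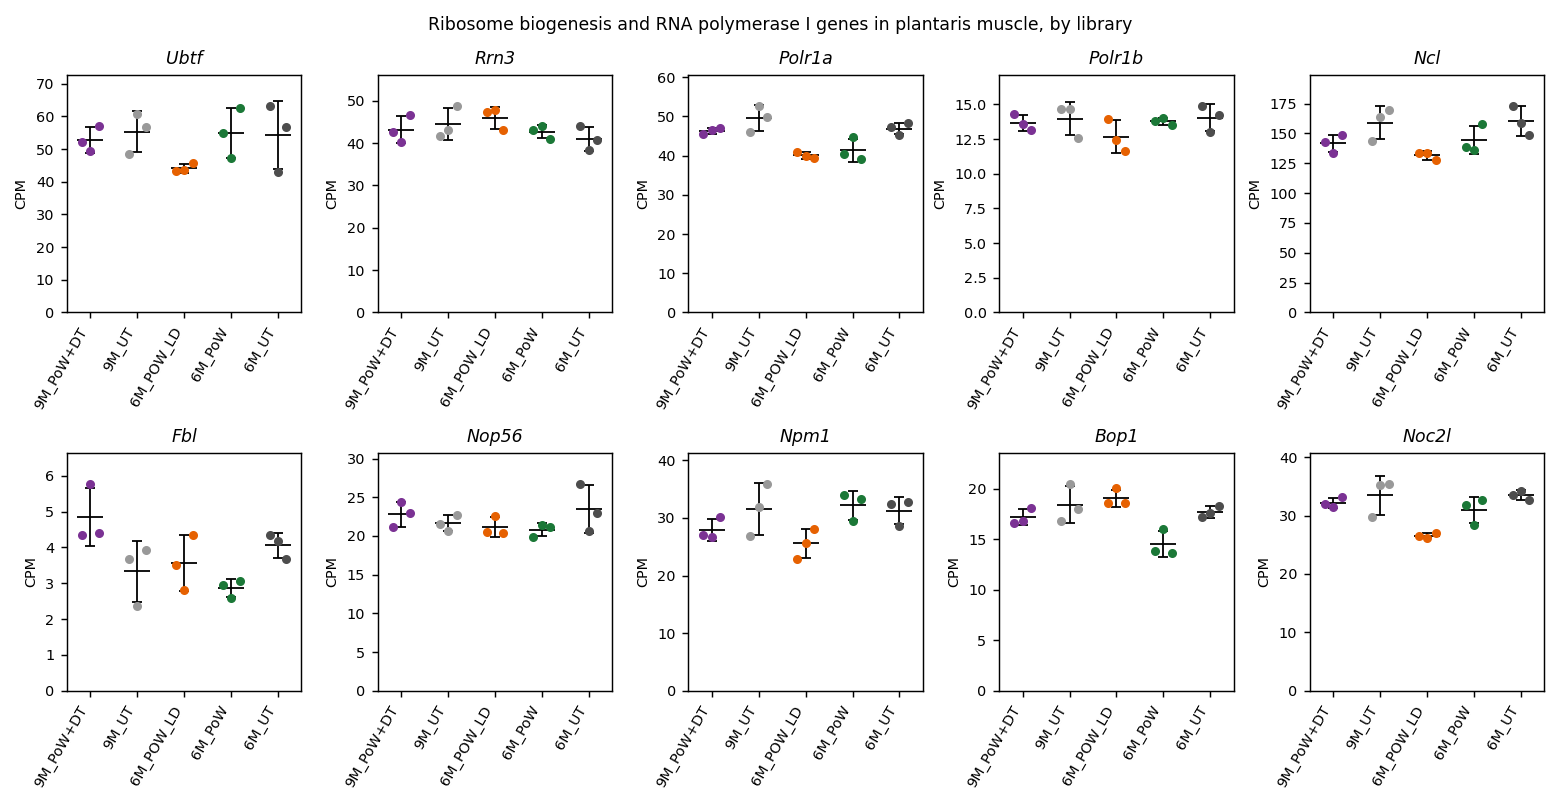
Normalised level (CPM, y axis from 0) of the 10 genes in each library, with 5 groups on the x axis, dots for the 3 libraries and black bars for mean and SD. Noc2l in the LD libraries lay between 26.2 and 27.0 CPM, below the other 12 libraries. Nop56, Polr1b and Rrn3 overlapped in every pair of groups compared, while each other gene was without overlap in some of them.

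Training for 8 weeks was set against no training at 6 months to ask whether the transcripts for building ribosomes were higher or lower at the end of it. No member passed the test. Of the 10 genes, 7 lay below 0 (median log2 fold change -0.13, trained over untrained), where 49.8% of all genes lay below 0 with a median of 0.0013. The members' median was -0.078 without 6M_UT replicate 1 and -0.083 without 6M_PoW replicate 2. The mean standardised level of the 10 genes was highest of all libraries in 6M_UT replicate 1, at 1.01, while 6M_UT replicate 2, at -0.22, lay within the trained range of -0.41 to -0.20. The count called was 0 of 10 in edgeR's quasi-likelihood test, DESeq2 and limma-voom, and edgeR called 0 of all 14919 genes (0%), where DESeq2 called 112 and limma-voom 0. At an unadjusted p under 0.05, 3 members were lower (Bop1, Fbl and Polr1a) and 0 higher, against 5.02% of all genes lower and 4.73% higher. In 4 members (those 3 and Noc2l) all trained libraries lay below all untrained ones, against 8.28% of all genes, and in 0 all lay above, against 7.89%.

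Of the 4 members of RNA polymerase I transcription, the largest subunit had the lowest fitted value. Polr1a (chromosome 6, 71909053 to 71984935 on mm10) stood at 40.4, 44.7 and 39.0 CPM in trained muscle, against 47.3, 45.3 and 48.2 CPM in untrained muscle. The groups did not overlap, with the highest trained library (replicate 2) next to the lowest untrained one (replicate 2). The log2 fold change was -0.18 ± 0.08 (SE, edgeR adjusted p = 0.497). The second subunit, Polr1b (chromosome 2, 129100995 to 129126594), stood at 13.8, 14.01 and 13.5 CPM in trained muscle, against 14.9, 12.99 and 14.2 CPM in untrained muscle, with trained values inside the untrained range. Its log2 fold change was -0.027, with a 95% interval of -0.27 to 0.21. The initiation factor gene Rrn3 (chromosome 16, 13780708 to 13814839) and the UBF gene Ubtf (chromosome 11, 102304560 to 102319742) overlapped between the groups as well. Their log2 fold changes were 0.057 (interval -0.14 to 0.25) and 0.016 (-0.28 to 0.31). Ubtf spread widely in untrained muscle, at 63.3, 43.1 and 56.6 CPM.

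Among the nucleolar processing factors, the snoRNP members Fbl and Nop56 had lower means in trained muscle. Fbl (chromosome 7, 28169710 to 28179269) encodes fibrillarin, the enzyme that methylates rRNA in box C/D snoRNPs. It stood at 2.95, 2.59 and 3.06 CPM in trained muscle, against 4.34, 4.18 and 3.67 CPM in untrained muscle. All trained libraries were below all untrained ones, with a log2 fold change of -0.50 ± 0.23 (SE, edgeR adjusted p = 0.497). Its box C/D partner Nop56 (chromosome 2, 130274430 to 130279313) averaged 20.8 ± 0.872 CPM with training, against 23.4 ± 3.10 CPM without (SD, n = 3), and untrained replicate 2, at 20.6 CPM, lay within the trained range. The log2 fold change of Nop56 was -0.17, and it ran from -0.26 to -0.066 with one library left out. Ncl (chromosome 1, 86344719 to 86359400) encodes nucleolin, an abundant protein that binds the precursor rRNA. Its trained libraries held 139, 136 and 158 CPM, against 173, 158 and 149 CPM in the untrained ones, with overlap (log2 fold change -0.15 ± 0.09, SE).

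Of the assembly factors, Bop1 had the smallest p of the 10 genes. Bop1 (chromosome 15, 76452989 to 76477277) belongs, with Pes1 and Wdr12, to the complex that matures the large subunit. It stood at 13.8, 16.01 and 13.7 CPM in trained muscle, against 17.2, 17.6 and 18.3 CPM in untrained muscle. The groups did not overlap, and the log2 fold change was -0.29 ± 0.11 (SE, edgeR adjusted p = 0.423). Noc2l (chromosome 4, 156235919 to 156247616), related to a yeast factor for large subunit export, averaged 30.9 ± 2.27 CPM with training, against 33.5 ± 0.806 CPM without (SD, n = 3). The highest trained library, at 32.64 CPM, was next to the lowest untrained one, at 32.65 CPM. Npm1 (chromosome 11, 33152287 to 33163206) encodes nucleophosmin, a histone and ribosome chaperone of the nucleolus. Its mean was 32.2 ± 2.49 CPM with training, against 31.3 ± 2.35 CPM without (SD, n = 3), with a log2 fold change of 0.044 (95% interval -0.19 to 0.28).

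The wider pathway gave no call either. The 5 lists of ribosome production held 118 tested genes besides the members, and 0 of them passed after training in edgeR, with 2 lower (1.69%) and 0 higher at an unadjusted p under 0.05, against 5.02% lower and 4.73% higher of all genes. Of the 118, 66.1% lay below 0, against 49.8% of all genes, with a median log2 fold change of -0.083. Large subunit assembly genes had 31 of 39 below 0 (median -0.12), and small subunit genes 24 of 42 (median -0.073). The 10 snoRNP proteins and the 10 rDNA regulators each had 7 below 0, and polymerase I subunits and initiation factors had 9 of 17. The smallest p of each list belonged to the helicase gene Ddx24 (log2 fold change -0.28 ± 0.09, SE), Pno1 of the small subunit (-0.17 ± 0.08), the box H/ACA gene Nhp2 (-0.31 ± 0.17), the nucleolar chaperone gene Nolc1 (-0.18 ± 0.10) and the polymerase subunit gene Polr1c (-0.45 ± 0.21). Nhp2 stood at -0.15 without 6M_PoW replicate 1 and -0.49 without 6M_PoW replicate 3, and Ddx24 at -0.17 without 6M_UT replicate 1.

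The levels of markers of other cells differed in both directions between these groups. The 7 fibro-adipogenic progenitor markers (Pdgfra, Dcn, Lum, Cd34, Ly6a, Col1a1, Col3a1) summed to 462 to 576 CPM with training, against 346 to 369.7 CPM without. The 6 macrophage and leukocyte markers summed to 47.3 to 65.4 CPM against 33.9 to 35.6 CPM, and the 5 endothelial markers to 287 to 321 CPM against 225 to 268 CPM. At an unadjusted p under 0.05, 5 of the 7 progenitor, 3 of the 6 leukocyte and 3 of the 5 endothelial markers were higher. Of all genes, 4.73% were higher by this rule, and edgeR called 0 of these markers. The endothelial marker Flt1 lay below 0, at a log2 fold change of -0.083. The 4 adipocyte markers summed to 5.49 to 9.09 CPM with training, against 9.25 to 11.2 CPM without, with 4 of 4 fitted values below 0. Satellite cell and myoblast markers overlapped, at 18.97 to 32.3 CPM against 20.3 to 22.1 CPM. Muscle fibre markers summed to 99281 to 115157 CPM against 110245 to 129800 CPM. Of these 8, 1 was higher (Acta1) and 1 lower (Atp2a1) at an unadjusted p under 0.05, with 0 called in edgeR. None of these defining markers was at 0. Their part in the values of the ribosome genes was not tested.

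**Figure D2:**
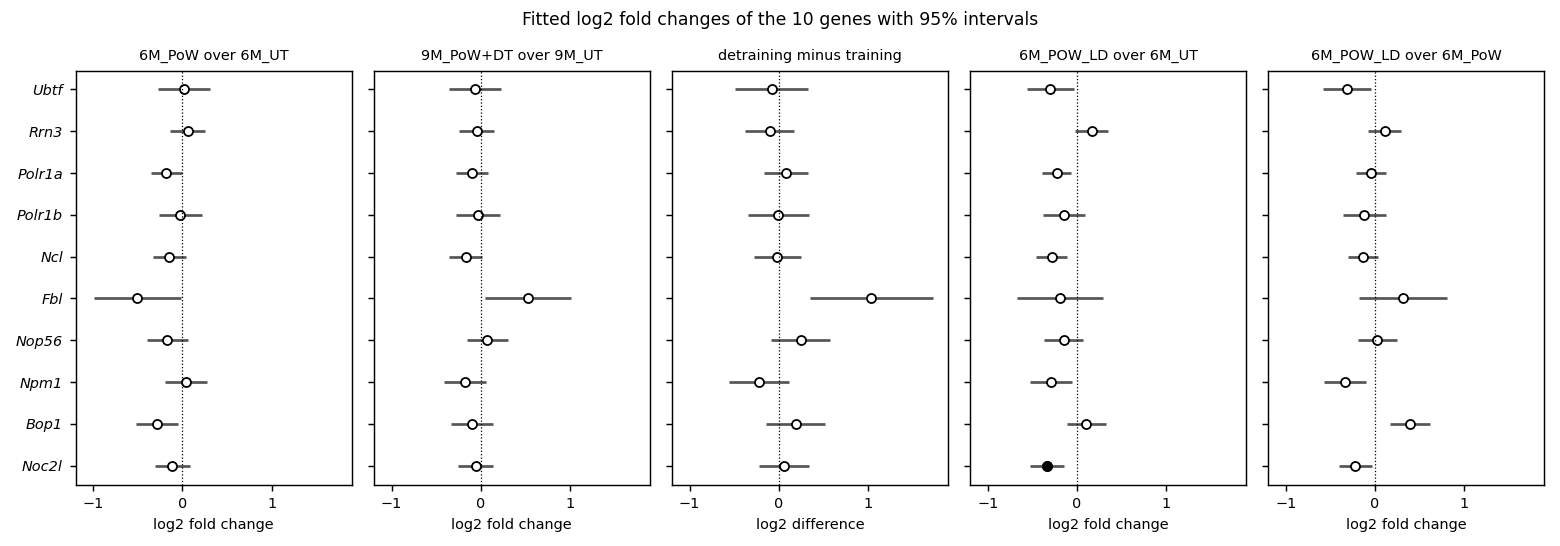
Fitted log2 fold change (dot) and 95% interval (line) of the 10 genes in 4 comparisons and in the difference of detraining and training, with a filled dot for an edgeR adjusted p under 0.05. Noc2l in the LD libraries over untrained is the filled dot, and Fbl lies at -0.50, 0.53 and 1.04 in the first 3 panels.

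Detrained mice were set against untrained mice of 9 months to ask what was left 12 weeks after training. No member passed, and 8 of 10 lay below 0 (median log2 fold change -0.059, detrained over untrained), where 49.1% of all genes lay below 0. The count called was 0 of 10 in edgeR, DESeq2 and limma-voom, beside 3 of all 14919 genes in edgeR (0.0201%). At an unadjusted p under 0.05 there was 1 member higher (Fbl) and 0 lower, against 3.22% of all genes higher and 3.29% lower. Fbl was also the 1 member whose groups did not overlap, where 6.19% of all genes lay higher and 5.7% lower in this way.

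Fbl had fitted values of like size and opposite sign in the 2 comparisons. It stood at 4.34, 5.77 and 4.39 CPM in detrained muscle, against 3.69, 2.37 and 3.94 CPM in untrained muscle. Detrained replicate 2 was the highest of all 15 libraries and untrained replicate 2 the lowest. The log2 fold change was 0.53 ± 0.23 (SE, edgeR adjusted p = 0.735), and it stood at 0.34 without untrained replicate 2 and 0.39 without detrained replicate 2. Subtracting the training from the detraining fold change of Fbl gave 1.04 ± 0.32 on the log2 scale (SE, edgeR adjusted p = 0.316, unadjusted p = 0.00564), which did not pass.

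The level of Fbl is uncertain, because reads can be split between it and a processed pseudogene. Its counts ran from 43.3 to 123 per library and were not whole numbers in 15 of 15 libraries. The table lists the pseudogene Fbl-ps2 on chromosome 17, at 2.81 to 6.15 CPM. Summed with it, Fbl averaged 6.85 ± 1.06 CPM with training, against 8.35 ± 1.58 CPM without (SD, n = 3). At 9 months the sum was 10.3 ± 1.44 CPM in the detrained group, against 7.66 ± 1.51 CPM in the untrained one. The log2 fold changes of the sum were -0.28 after training, where the groups then overlapped, and 0.43 after detraining, with a difference of 0.71 (edgeR adjusted p = 0.675, 0.754 and 0.421). Nop56 and Npm1 were also not whole in 15 of 15 libraries and Noc2l in 14, while Bop1, Polr1b and Rrn3 were whole in all 15.

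**Figure D3:**
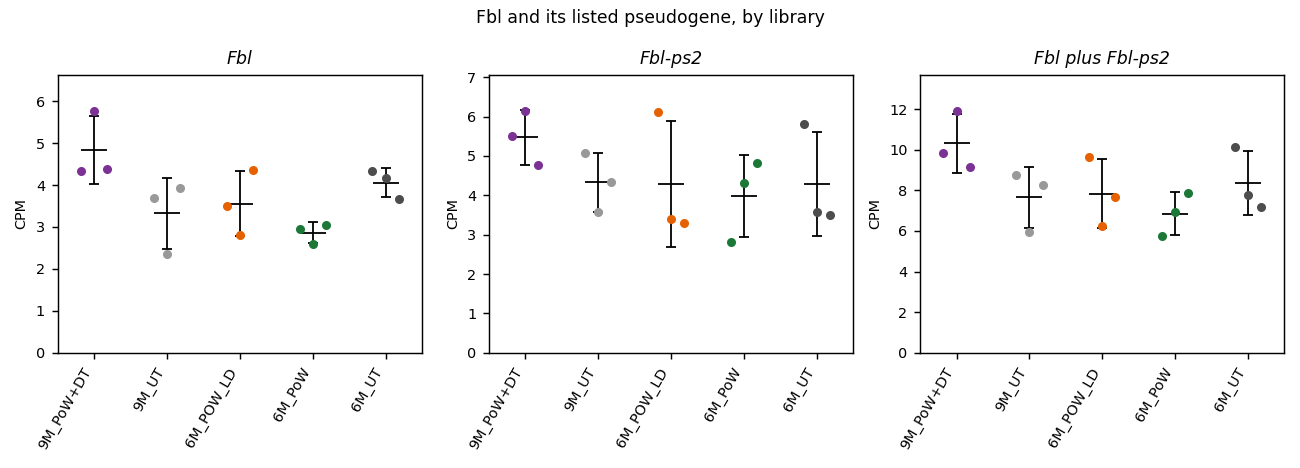
Normalised level (CPM, y axis from 0) of Fbl, its listed pseudogene Fbl-ps2 and their sum in each library, with dots for libraries and bars for mean and SD. The 3 trained libraries lie at 2.59 to 3.06 CPM for Fbl, below untrained libraries at 3.67 to 4.34 CPM, but the sum overlaps between these groups.

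The other 9 members overlapped between the 9-month groups. Ncl stood at 143, 134 and 148 CPM in detrained muscle, against 143, 164 and 169.7 CPM in untrained muscle. The fitted log2 value was -0.17 ± 0.09 (SE, edgeR adjusted p = 0.772), and 1 untrained library lay among the detrained ones. Polr1a averaged 46.4 ± 0.797 CPM in the detrained group, against 49.6 ± 3.38 CPM in the untrained one (SD, n = 3). Its log2 fold change of -0.096 had a 95% interval of -0.27 to 0.079. Bop1 averaged 17.2 ± 0.804 CPM in detrained muscle, against 18.4 ± 1.86 CPM in untrained muscle, with an interval of -0.33 to 0.14 around -0.097. For Rrn3, Polr1b, Ubtf, Noc2l and Nop56 the fold changes lay between -0.064 and 0.075, and Npm1 stood at -0.18 ± 0.11 (SE). With one library left out, Npm1 ran from -0.28 (without 9M_UT replicate 1) to -0.072 (without 9M_UT replicate 3), and Bop1 from -0.16 (without 9M_UT replicate 1) to -0.017 (without 9M_UT replicate 2). The 4 adipocyte markers summed to 15.4 to 61.6 CPM in detrained muscle, against 7.43 to 14.03 CPM in untrained muscle. These sums averaged 30.9 ± 26.6 CPM against 10.9 ± 3.32 CPM (SD, n = 3), a wide spread in the detrained group. Muscle fibre markers summed to 111230 to 147774 CPM against 111326 to 138743 CPM. At an unadjusted p under 0.05, 2 of 7 progenitor and 2 of 5 endothelial markers were lower, against 3.29% of all genes. By the same rule 4 of 4 adipocyte markers were higher, against 3.22% of all genes. Progenitor markers overlapped in sum, at 349 to 436 CPM against 410 to 442 CPM. Leukocyte markers (42.2 to 50.8 CPM against 42.5 to 49.5 CPM) overlapped too. So did satellite cell and myoblast markers (15.3 to 22.7 CPM against 12.1 to 29.5 CPM), with 4 of 4 fitted values below 0. Endothelial markers summed to 206 to 254.5 CPM in detrained muscle, against 255 to 276 CPM in untrained muscle, with 5 of 5 fitted values below 0. A feature typed as rRNA, CT010467.1, was chosen after its values were seen. It took 1.34 to 1.45% of counts in detrained libraries, against 0.962 to 1.295% in untrained ones of 9 months. Untrained libraries of 6 months spanned 1.14 to 1.60%, a range that covers the detrained values. Its log2 fold change, detrained over untrained, was 0.28 ± 0.11 (SE, edgeR adjusted p = 0.703). In that comparison 6.19% of all genes lay higher without overlap. In untrained mice, 9 over 6 months, the log2 fold change of this feature was -0.36 ± 0.11 (SE, edgeR adjusted p = 0.498). The part of these signs in the values above was not tested.

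In the difference between detraining and training, 0 of 10 members passed in edgeR, DESeq2 and limma-voom, beside 4 of 14919 genes in edgeR (0.0268%), and Fbl was the 1 member at an unadjusted p under 0.05 (4.79% of all genes higher, 4.69% lower). Of the 118 other pathway genes, 0 passed in the detraining comparison, with 1 higher and 1 lower (0.847% each) at an unadjusted p under 0.05, against 3.22% and 3.29% of all genes. Of the 118, 54.2% lay below 0, against 49.1% of all genes. Polymerase I subunits and initiation factors had 4 of 17 below 0, with a median log2 fold change of 0.051. The smallest p of each list belonged to Utp20 of the small subunit processome (log2 fold change -0.32 ± 0.13, SE), the assembly gene Nop16 (0.37 ± 0.17), the shared polymerase subunit gene Polr2f (0.31 ± 0.16), the MYC partner gene Max (-0.30 ± 0.20) and the box H/ACA gene Nop10 (0.21 ± 0.11). Max stood at -0.16 without 9M_PoW+DT replicate 1 and -0.18 without 9M_UT replicate 2, and Utp20 at -0.21 without 9M_PoW+DT replicate 2.

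Untrained mice of 9 months were also set against untrained mice of 6 months. The 10 genes lay close to 0, their median log2 fold change being 0.0056 (9 over 6 months). The groups overlapped in all 10, where 6.47% of all genes lay lower and 5.34% higher without overlap. The count called was 0 of 10 in edgeR, DESeq2 and limma-voom, 0 of the 10 had an unadjusted p under 0.05 (6.72% of all genes), and edgeR called 2 of 14919 genes (0.0134%). The widest value was again that of Fbl, at -0.28 ± 0.23 (SE), followed by Rrn3 at 0.12 ± 0.09. For Ncl the 95% interval was -0.20 to 0.17, and for Noc2l -0.20 to 0.19. Of the 118 other pathway genes, 0 passed in edgeR. At an unadjusted p under 0.05, 5 were lower (4.24%) and 2 higher (1.69%), against 3.51% and 3.21% of all genes. Polymerase I subunits and initiation factors had 14 of 17 below 0, with a median log2 fold change of -0.10, where 51% of all genes lay below 0. Among them Polr2k, Polr2l and Taf1d, named after their values were seen, were the 3 at an unadjusted p under 0.05, at -1.17 ± 0.38, -0.24 ± 0.10 and -0.36 ± 0.14 (SE).

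The LD libraries were set against 6M_UT and against the first trained set to ask whether a second block titled as trained had the same levels. Against untrained muscle 8 of 10 genes lay below 0, with a median log2 fold change of -0.21, where 48.8% of all genes lay below 0. Noc2l was the 1 member of 10 that passed, beside 757 of 15181 genes (4.99%), of which 430 were lower (2.83%) and 327 higher (2.15%). At an unadjusted p under 0.05, 5 members were lower (Ncl, Noc2l, Npm1, Polr1a and Ubtf) and 0 higher, against 10.3% of all genes lower and 9.72% higher. The groups did not overlap in 4 members that were lower (Ncl, Noc2l, Npm1 and Polr1a), against 12.7% of all genes, and in Bop1, which was higher, against 12.6%.

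Noc2l was lower in the LD libraries, at 26.5, 26.2 and 27.0 CPM, against 33.6, 34.3 and 32.65 CPM in untrained muscle. The LD values lay close together and below every library of the other 4 groups. The log2 fold change was -0.34 ± 0.09 (SE, edgeR adjusted p = 0.0358). The call ended without any 1 of the 6 libraries compared, at -0.35 to -0.32 and an adjusted p of 0.0635 to 0.123, and with the other groups left out of the fit (adjusted p = 0.0741). Noc2l shares 598 exon bases with Samd11 on the other strand, which had at most 10.4 counts in a library.

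Ncl followed closely without passing. It stood at 134, 134 and 127 CPM in the LD libraries, against 173, 158 and 149 CPM in untrained muscle, without overlap. The log2 fold change was -0.28 ± 0.08 (SE, edgeR adjusted p = 0.0524), and it passed in DESeq2 (adjusted p = 0.0249) but not in limma-voom. Polr1a stood at 41.0, 39.9 and 39.4 CPM against 47.3, 45.3 and 48.2 CPM, also without overlap (log2 fold change -0.23 ± 0.08, SE, edgeR adjusted p = 0.107). The first trained set averaged 41.4 ± 2.96 CPM of Polr1a (SD, n = 3), and its comparison shares the same untrained libraries.

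The genes of the polymerase I factors had fitted values of opposite sign. Rrn3 stood at 47.2, 47.7 and 43.0 CPM in the LD libraries, against 44.1, 38.4 and 40.7 CPM in untrained muscle, with overlap and a log2 fold change of 0.16 (95% interval -0.020 to 0.35). Ubtf stood at 43.2, 43.6 and 45.7 CPM against 63.3, 43.1 and 56.6 CPM. Untrained replicate 2 lay at the LD level. The log2 fold change of Ubtf was -0.30 ± 0.13 (SE, edgeR adjusted p = 0.195). With one library left out it ran from -0.44 to -0.17. The value of -0.44 was that without untrained replicate 2, where Ubtf passed (edgeR adjusted p = 0.0366).

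Of the other pathway genes, 4 were called lower (3.39%) and 1 higher (0.847%) among 118 tested in the LD libraries over untrained muscle, against 2.83% and 2.15% of all genes. Of the 118, 70.3% lay below 0, against 48.8% of all genes. Taf1d, a subunit of the polymerase I selectivity factor, stood at 11.1, 10.3 and 8.79 CPM in the LD libraries, against 16.4, 15.6 and 13.01 CPM in untrained muscle. Gnl3, the gene of nucleostemin, averaged 14.2 ± 0.939 CPM in the LD libraries, against 20.2 ± 2.05 CPM in untrained muscle (SD, n = 3). Utp20 averaged 14.5 ± 0.539 CPM in the LD libraries, against 20.4 ± 1.52 CPM in untrained muscle, and Ddx24 59.8 ± 1.32 CPM against 76.1 ± 9.32 CPM. The log2 fold changes were -0.57, -0.51, -0.48 and -0.35 (edgeR adjusted p = 0.0230, 0.0240, 0.0278 and 0.0313). Cavin1 was higher, at 149 ± 7.95 CPM against 119.7 ± 10.04 CPM (log2 fold change 0.32, edgeR adjusted p = 0.0273). It was first named as a release factor of polymerase I transcripts and is best known as a coat protein of caveolae. In 9M_UT these 5 genes averaged 11.7 (Taf1d), 21.7 (Gnl3), 20.8 (Utp20), 73.6 (Ddx24) and 146 CPM (Cavin1). Each of these 5 calls ended without 6M_UT replicate 1, 6M_POW_LD replicate 5 or 6M_POW_LD replicate 6 and, other than that of Utp20, with only these 2 groups in the fit. Over all lost calls with a library left out, 20 in number, the edgeR adjusted p lay between 0.0548 and 0.166, and for Ddx24 the log2 fold change was -0.24 without 6M_UT replicate 1.

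Of the markers of other cells, 4 of 7 progenitor markers and 1 of 6 leukocyte markers were called higher in the LD libraries in edgeR. Of all genes, 2.15% were called higher. Progenitor markers summed to 479 to 602 CPM, against 346 to 369.7 CPM in untrained muscle, and leukocyte markers to 50.8 to 62.6 CPM against 33.9 to 35.6 CPM. The 4 satellite cell and myoblast markers (Pax7, Myf5, Myod1, Myog) summed to 33.8 to 55.1 CPM against 20.3 to 22.1 CPM. Adipocyte markers summed to 1.84 to 9.07 CPM, against 9.25 to 11.2 CPM in untrained muscle, with 4 of 4 fitted values below 0. Endothelial markers summed to 269 to 314 CPM against 225 to 268 CPM. Muscle fibre markers overlapped in sum, at 104722 to 123286 CPM against 110245 to 129800 CPM. Of these 8 markers, edgeR called Acta1 higher (log2 fold change 0.33, adjusted p = 0.00721) and Actn3 lower (-0.77, adjusted p = 0.0137). The part of these markers in the ribosome gene values was not tested.

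**Figure D4:**
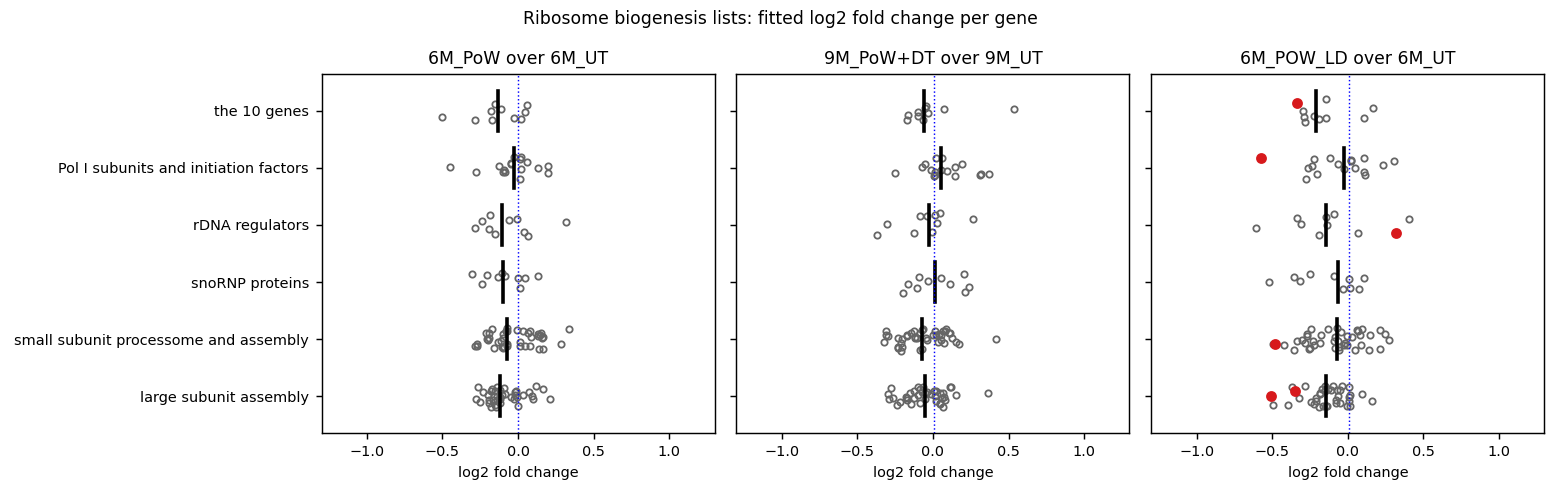
Fitted log2 fold change of each gene (dots; x axis) in the 10 genes and the 5 other ribosome production lists (rows) for 3 comparisons, with a black bar for the list median, a dotted line for the median of all genes and red dots for an edgeR adjusted p under 0.05. Red dots appear in the LD panel, with Taf1d at -0.57 and Cavin1 at 0.32.

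The LD libraries were last set against the first trained set. No member passed in edgeR or limma-voom, beside 365 of 15181 genes in edgeR (2.4%), while DESeq2 passed Bop1. At an unadjusted p under 0.05, 3 members were lower (Noc2l, Npm1 and Ubtf), against 7.18% of all genes, and Bop1 was higher, against 7.09%. The groups did not overlap in these 4 and in Ncl, which was lower. Of all genes, 10.7% lay lower and 10.7% higher in this way. Of the 118 other pathway genes, 0 passed in edgeR, and 56.8% lay below 0, against 50.2% of all genes. Bop1 stood at 18.5, 20.05 and 18.5 CPM in the LD libraries, against 13.8, 16.01 and 13.7 CPM in the first trained set. All LD libraries were above all of that set, with a log2 fold change of 0.39 ± 0.11 (SE, edgeR adjusted p = 0.0560, DESeq2 adjusted p = 0.0237). Npm1 stood at 23.0, 25.7 and 28.02 CPM in the LD libraries, against 34.1, 29.4 and 33.2 CPM in the first trained set, without overlap (log2 fold change -0.33 ± 0.11, SE, edgeR adjusted p = 0.137). Over untrained muscle, at 17.2, 17.6 and 18.3 CPM, the log2 fold change of Bop1 in the LD libraries was 0.11 (95% interval -0.11 to 0.33, edgeR adjusted p = 0.620).

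Bop1 overlaps 2 genes on the other strand, Mroh1 over 50 exon bases and the tendon factor gene Scx, which lies within its span and shares 0 exon bases with it. Scx stood at 2.36 to 6.33 CPM in the 15 libraries. Nop56 shares 5 bases with Idh3b, and Polr1a 185 exon bases with Gm26628, which had at most 18 counts. The labels do not say whether the counting used strand, so reads on shared bases cannot be told apart.

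The genes whose profile over the 15 libraries was most like the mean profile of the 10 members were Ddx1, Htatsf1, Tbc1d1, Wdr43 and Zfp869. Pearson's r was 0.93, 0.93, 0.92, 0.92 and 0.91, and Spearman's rho 0.92, 0.93, 0.93, 0.88 and 0.92, given as a description of 15 libraries that share groups and depth. Of these genes only Wdr43, a factor of the small subunit processome, was in the ribosome production lists.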

How the data were processed

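RNA of 15 plantaris libraries was sequenced, and the authors' deposited table holds 1 expected count per gene and library. STAR 2.7.3a, DESeq2, Partek and build mm10 are named per the submitters' processing notes, without roles; these notes name no counter, strand setting or annotation release. Coordinates are those of the deposited table, with 1 taken from the stop, and equal GENCODE M21 for 9 of the 10 genes. Expected counts were rounded, genes filtered with filterByExpr (14919 genes in the 12 libraries without LD, 15181 in all 15), scaled by TMM and fitted with edgeR 4.0.16 (quasi-likelihood, robust, 1 mean per group, R 4.3.3). Comparisons without LD used the 12-library fit. P-values were adjusted by Benjamini-Hochberg over all genes, with 0.05 as threshold. CPM uses effective totals of all 15 libraries. Intervals are 95%. The fit was tested on simulated data for the training comparison. It called 25 of 100 genes changed 1.5-fold and 51 of 100 changed 2-fold, with 7 calls among unchanged genes. A gene that was not called can therefore still differ. The changed genes were drawn at random from all genes of the fit, so these shares need not hold for the members. For a member the unadjusted 95% interval is the closer guide. In training it was -0.33 to 0.034 for Ncl and -0.99 to -0.018 for Fbl. Of the members, Fbl had the lowest counts.

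Alternatives were DESeq2 1.42.0, limma-voom (limma 3.58.1), 2 other scalings, 2 other filters, fits of the compared groups alone, a replicate block, each library left out, and both other readings of the labels; summing Fbl with its pseudogene was added after seeing the data. The members and lists were chosen with earlier results of these data known. All 10 members were named; of the other lists, genes called, or else the smallest p per list after training and detraining. Replicate pairs differed by far more than counting noise, and none was merged. Sequences are from RefSeq.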

Additional observations from a re-analysis of the deposited data

How the results depend on the processing

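No member was called in the training, detraining, difference or age comparison under any setting run, each library left out included. In the LD libraries over untrained, 1 member was called, 2 with RLE size factors, library totals only, no filter, the stricter filter or DESeq2 (Noc2l and Ncl), 0 with only the groups compared, and 0 to 1 with one library left out. In the LD libraries over trained, 1 member (Bop1) was called with the stricter filter and DESeq2, beside 0. Of the other pathway genes, Cavin1 in the LD libraries over untrained lost its call with library totals only (0.31, adjusted p = 0.0744). The cause of these moves was not tested.

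Over all genes, training calls (0) were 8 with no filter, 112 in DESeq2, 1 with the replicate block, 4 with only the groups compared and 29 with LD libraries added to trained. Detraining calls (3) were 30 in DESeq2, 0 in limma-voom and 18 with only the groups compared. Calls in the difference (4) were 10 with no filter, 111 in DESeq2, 0 in limma-voom, 0 with the 9-month groups exchanged, and 2 and 1 with LD libraries added to trained and untrained. Age calls (2) were 7 with library totals only, 10 with no filter, 58 in DESeq2, 0 in limma-voom, 5 with the replicate block, 10 with only the groups compared and 0 with the 9-month groups exchanged. LD calls over untrained (757) were 1190 in DESeq2 and 387 with only the groups compared, and over trained (365) 675 in DESeq2. With one library left out these counts ran from 0 to 10 (training), 1 to 4 (detraining), 0 to 26 (difference), 1 to 5 (age), 288 to 707 (LD over untrained) and 157 to 231 (LD over trained).

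The members' median was -0.021 after training with LD libraries added to untrained, 0.059 after detraining with the 9-month groups exchanged, 0.11 and -0.050 in the difference with that exchange and with LD libraries added to untrained, and -0.13 in LD over trained with library totals only. With one library left out it ran from -0.15 to -0.078 after training, -0.14 to -0.017 after detraining and from -0.10 to -0.047 in LD over trained. The exchange of the 9-month groups also turns each detraining fold change round.

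The sign of some values near 0 turned, none of them called. With library totals only, which shifted the median of all genes by at most 0.055, they were Polr1b in training (0.018), detraining (0.023) and the difference (0.0054), Noc2l (0.0039) and Rrn3 (0.012) in detraining, Npm1 (-0.019) and Ubtf (-0.0021) in age, and Nop56 in LD over trained (-0.019). In the age comparison Noc2l turned with RLE size factors (0.0037), the stricter filter (0.0024), DESeq2 (0.0029) and only the groups compared (0.0062), and Polr1b with RLE size factors (0.00012), DESeq2 (0.0011) and only the groups compared (0.0023). With one library left out, age values ran from -0.024 to 0.12 for Bop1, -0.062 to 0.057 for Ncl, -0.047 to 0.076 for Noc2l, -0.089 to 0.12 for Npm1, -0.060 to 0.064 for Polr1b and -0.12 to 0.15 for Ubtf. In the difference they ran from -0.086 to 0.049 for Ncl, -0.020 to 0.10 for Noc2l, -0.074 to 0.050 for Polr1b and -0.21 to 0.062 for Ubtf. In training they ran from -0.018 to 0.11 for Npm1, -0.081 to 0.018 for Polr1b and -0.13 to 0.14 for Ubtf. In detraining they ran from -0.10 to 0.0050 for Polr1b, -0.10 to 0.027 for Rrn3 and -0.15 to 0.0051 for Ubtf. In LD over trained they ran from -0.027 to 0.049 for Nop56 and -0.082 to 0.015 for Polr1a.

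The replicate numbers showed no pairing of the libraries. Same-numbered libraries of different groups correlated at over 0.1 in 4 of 18 pairs, and differently numbered ones in 11 of 36. Of 36 best matches, each among the 3 libraries of another group, 13 carried the same number. With the replicate block no call of a member changed, and training Bop1 stood at -0.29 (adjusted p = 0.451).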
